A study of Mus musculus with 19 samples.

Results

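The 8 genes described here were chosen by name from the annotation of the array as targets of the liver X receptors (LXR) and genes of sterol efflux: Abca1, Abcg1, Nr1h2, Nr1h3, Mylip, Lpcat3, Apoe and Pltp. Of these, 6 had a probe set of their own, out of 18820 genes tested. Each of the 6 had 1 such probe set: 10484987 for Nr1h3, 10512949 for Abca1, 10443730 for Abcg1, 10560624 for Apoe, 10404874 for Mylip and 10541695 for Lpcat3. Pltp was listed with Ctsa on 1 shared probe set, and Nr1h2 was not analysed here because the annotation used pairs no probe set with it.

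RNA came from the mouse fibroblast line 3T3-L1, turned into fat-storing adipocytes with dexamethasone, IBMX and insulin. All groups were then kept in insulin, lost serum on day 7, and received albumin and ethanol, with or without an acid, for 48 h from day 8. Palmitic acid (PA, 16 carbons and 0 double bonds, n = 4 arrays), palmitoleic acid (PMA, 16 carbons and 1 double bond, n = 4, titled PMO), stearic acid (SA, 18 carbons and 0 double bonds, n = 4) and oleic acid (OA, 18 carbons and 1 double bond, n = 3) were each given at 250 µM. Control cells (n = 4) received 2% albumin and the ethanol solvent alone. All groups come from 1 cell line. The arrays are called biological replicates in the labels, with nothing on separate cultures, so p-values measure only the spread between these samples.

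LXR are nuclear receptors that bind oxysterols, oxidised forms of cholesterol, and switch on genes that move cholesterol out of the cell. Nr1h3 encodes LXRα and Nr1h2 LXRβ, and each pairs with a retinoid X receptor (RXR) on DNA, typically on a direct repeat of AGGTCA with a spacer of 4 bases. In adipocytes, which hold much of the free cholesterol of the body, LXRα and its targets rise during differentiation, and in several cell lines unsaturated fatty acids have been reported to antagonise LXR.

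None of the 6 genes passed the threshold (adjusted p under 0.05, limma, Benjamini-Hochberg over all genes) with any acid. The share of all genes that passed was 0% with PA, 0.266% with PMA, 0.165% with SA and 0.861% with OA. These are 0, 50, 31 and 162 genes, and with single arrays left out in turn 0 to 510 genes passed with PA, 8 to 129 with PMA, 4 to 59 with SA and 22 to 243 with OA. All 24 differences between an acid and control were small: their 95% intervals lay between 0.87-fold and 1.27-fold, so a change of 1.5-fold lay outside every one of them. The largest differences were of Mylip with PMA and of Abcg1 with PA, each 0.19 on the log2 scale. At an unadjusted p under 0.05, 1 of the 6 genes was higher with PA, 1 with PMA, 0 with SA and 1 with OA. Among all genes 10.9%, 14.5%, 5.64% and 7.99% were higher at that level with PA, PMA, SA and OA in turn. None of the 6 genes was lower at that level with any acid, against 4.55%, 1.49%, 2.89% and 3.65% of all genes. A difference above 0, whatever its p, was seen in 3 of the 6 genes with PA, 6 with PMA, 4 with SA and 4 with OA, and in 61.7%, 78.5%, 58.1% and 56.7% of all genes.

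Nr1h3, the gene of LXRα, had nearly the same level in every group. Its log2 expression was 9.14, 9.21, 9.29 and 9.11 with PA, 9.23, 9.27, 9.19 and 9.21 with PMA, 9.30, 9.11, 9.10 and 9.22 with SA, and 9.27, 8.98 and 9.25 with OA, against 9.33, 9.12, 9.21 and 9.21 in control cells. The groups overlapped throughout, and the lowest array was OA replicate 2. Group means lay in the order PMA, control, PA, SA and OA, and the whole range of these means was 0.06, less than the residual SD of 0.09 between arrays of a group. The log2 difference from control was -0.03 ± 0.07 (SE) with PA, 0.01 ± 0.07 with PMA, -0.04 ± 0.07 with SA and -0.05 ± 0.07 with OA, with adjusted p from 0.843 to 0.95 (limma). The 95% intervals of the 4 differences reached from 0.87-fold to 1.11-fold.

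Abca1, the transporter that loads cholesterol and phospholipid onto lipid-poor apolipoproteins, is shown with its promoter, which holds an imperfect LXR-type repeat. The 300 bases around its start site (250 before and 50 after, chr4:53159846-53160145, minus strand, RefSeq, GRCm38.p6) are printed to show this element, which stands in capitals, 5′ to 3′ on the strand of the gene.
Abca1: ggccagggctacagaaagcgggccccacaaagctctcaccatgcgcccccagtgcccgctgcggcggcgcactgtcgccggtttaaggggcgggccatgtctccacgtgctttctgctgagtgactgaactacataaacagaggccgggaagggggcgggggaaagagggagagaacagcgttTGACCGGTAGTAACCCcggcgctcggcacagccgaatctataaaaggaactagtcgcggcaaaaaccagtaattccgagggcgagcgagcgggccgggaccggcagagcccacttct
Read on the opposite strand the element is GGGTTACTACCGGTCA, which differs from a direct repeat (AGGTCA, any 4 bases, AGGTCA) at 3 of its 12 fixed bases, and its first base on the strand printed lies at -67 from the start site. Both strands were searched with up to 3 mismatches, and 21.9% of all 32841 promoters of this length held such a match. Of the 7 genes of the set with a promoter in the table (all but Abcg1), 1 held such a match, no larger a share than over all promoters. A match describes these letters only, and a promoter without one says nothing about LXR binding.

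Abca1 stood at 9.90, 9.95, 9.87 and 9.93 with PA, 9.92, 9.83, 9.90 and 10.02 with PMA, 9.97, 9.91, 9.90 and 9.78 with SA, and 9.84, 9.86 and 9.99 with OA, against 9.85, 9.85, 9.83 and 9.79 in control cells. All PA arrays lay above all control arrays, while each of the other 3 acids overlapped with control. For comparison, 3.9% of all genes lay above control on every PA array. The log2 difference from control was 0.09 ± 0.05 with PA (95% interval -0.02 to 0.19, adjusted p = 0.421), 0.09 ± 0.05 with PMA (adjusted p = 0.398), 0.06 ± 0.05 with SA (adjusted p = 0.844) and 0.07 ± 0.06 with OA (adjusted p = 0.737, limma). The intervals of the 4 acids reached from 0.97-fold to 1.15-fold. The 4 acids averaged 0.08 ± 0.04 above control (adjusted p = 0.459), and 0 of the 6 genes passed in that comparison, as did 0.197% of all genes. The acids differed among themselves by less than the spread between arrays, with group means from 9.89 with SA to 9.92 with PMA, all above the 9.83 of control.

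**Figure D1:**
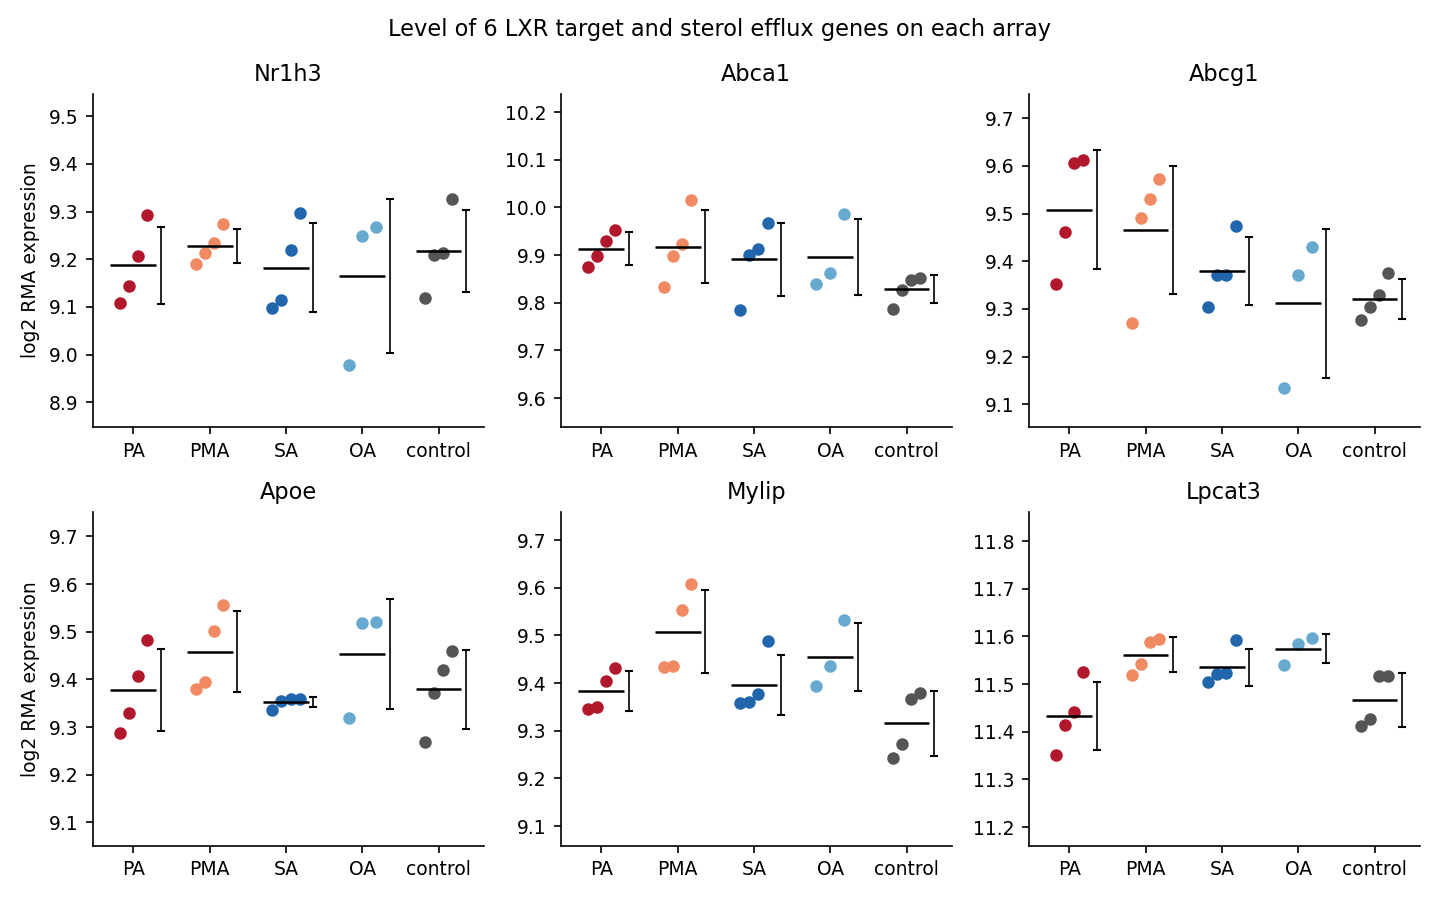
Log2 RMA expression (y axis) of the 6 genes on each array, by group (x axis: PA, PMA, SA, OA, control). Points are arrays, horizontal lines group means and bars 1 SD (n = 4, OA n = 3); each panel spans the same height on the log2 scale, starts away from 0, and shows small shifts with overlap in most groups, with Abca1 above control on all PA arrays and Mylip and Lpcat3 above control on all PMA and OA arrays.

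Abcg1, the half-transporter that exports cholesterol to mature lipoprotein particles, varied most between arrays. Its log2 expression was 9.35, 9.61, 9.46 and 9.61 with PA, 9.53, 9.27, 9.49 and 9.57 with PMA, 9.37, 9.30, 9.37 and 9.47 with SA, and 9.37, 9.13 and 9.43 with OA, against 9.30, 9.28, 9.33 and 9.38 in control cells. PA replicates 2 and 4 were the highest arrays and OA replicate 2 the lowest, and every acid overlapped with control. The means ran from 9.51 ± 0.12 with PA and 9.47 ± 0.13 with PMA (SD, n = 4 each) through 9.38 ± 0.07 with SA to 9.31 ± 0.16 with OA (SD, n = 3), against 9.32 ± 0.04 in control cells. The log2 difference from control was 0.19 ± 0.07 with PA (95% interval 0.03 to 0.34, adjusted p = 0.262), 0.14 ± 0.07 with PMA (adjusted p = 0.338), 0.06 ± 0.07 with SA (adjusted p = 0.913) and -0.01 ± 0.08 with OA (adjusted p = 0.987, limma).

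The level of Abcg1 went with the median of the whole array. PA replicates 2 and 4 had array medians of 5.43 and 5.36 and PMA replicates 1 and 4 had 5.41 and 5.35, while the control arrays lay between 5.23 and 5.31. Over the 19 arrays the Pearson correlation of Abcg1 with the array median was 0.75 (permutation p = 0.00016, two-sided, adjusted over 6 genes p = 0.00096), and Spearman's rho was 0.65 (permutation p = 0.00349, adjusted p = 0.0209). Without PA replicate 2 and PMA replicate 1, the 2 arrays with medians farthest from the middle, it was 0.68 over 17 arrays. As deviations from the group means it was 0.62. Among all genes, 9.59% had a correlation at least as high. The other 5 genes had Pearson correlations from -0.29 for Lpcat3 to 0.35 for Mylip, with adjusted permutation p from 0.265 to 0.727. With PA replicates 2 and 4 left out, a choice made after seeing the data, Abcg1 was 0.09 above control with PA. With PMA replicates 1 and 4 left out it was 0.06 above control with PMA. In both cases these are the highest Abcg1 arrays of their group, so a smaller difference follows from the choice itself. Cyclic loess between arrays left the median of all genes 0.01 above control with PA and with PMA, against 0.03 and 0.06 before it. After it Abcg1 was 0.21 ± 0.07 above control with PA (adjusted p = 0.232), no smaller than without it, and 0.10 ± 0.07 with PMA (adjusted p = 0.683).

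**Figure D2:**
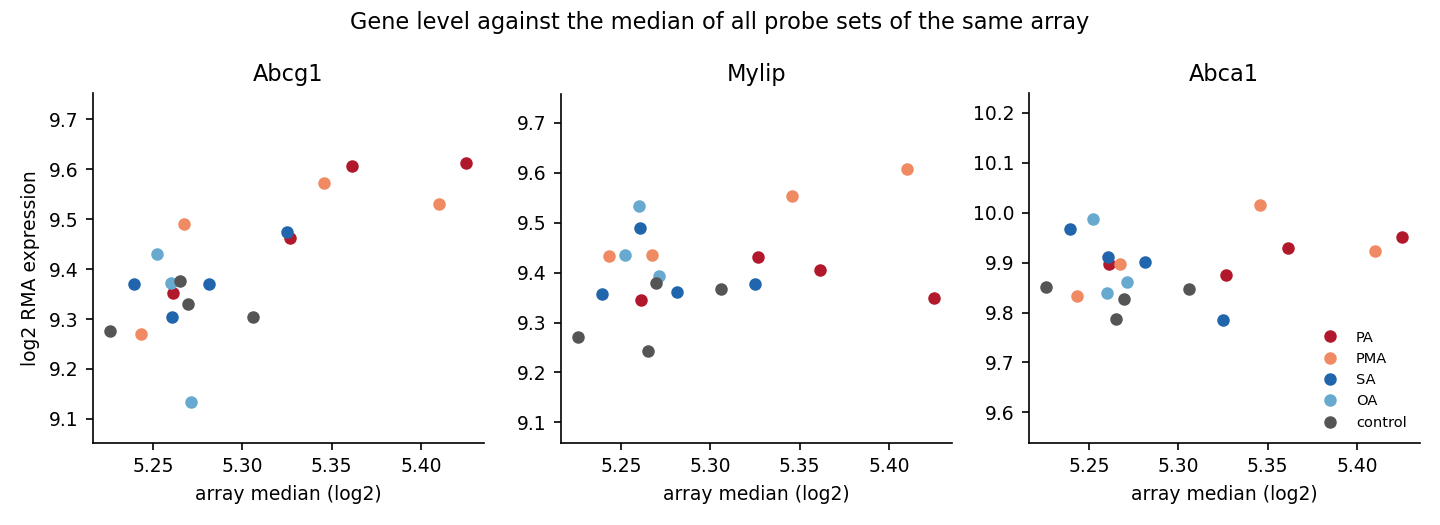
Log2 RMA expression (y axis) of Abcg1, Mylip and Abca1 against the median of all probe sets of the same array (x axis, log2), 1 point per array, coloured by group. Abcg1 is highest on the PA and PMA arrays with the highest medians (Pearson r = 0.75 over 19 arrays), while Mylip and Abca1 follow the median less closely (r = 0.35 and 0.30).

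Apoe, the apolipoprotein that carries cholesterol away from cells, was measured at 9.29, 9.48, 9.41 and 9.33 with PA, 9.56, 9.39, 9.50 and 9.38 with PMA, 9.35, 9.34, 9.36 and 9.36 with SA, and 9.52, 9.32 and 9.52 with OA, against 9.42, 9.27, 9.37 and 9.46 in control cells. All groups overlapped with control, and the SA arrays lay closest together (SD 0.01, against 0.08 to 0.12 in the other groups). The log2 difference from control was 0.00 ± 0.06 with PA (95% interval -0.13 to 0.12), 0.08 ± 0.06 with PMA, -0.03 ± 0.06 with SA and 0.07 ± 0.07 with OA, with adjusted p from 0.526 to 0.984 (limma). The intervals of the 4 acids reached from 0.90-fold to 1.16-fold.

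Pltp encodes the phospholipid transfer protein that remodels lipoproteins, and Ctsa a lysosomal carboxypeptidase. Their shared probe set 10489569 cannot be assigned to either gene. It stood at 10.63, 10.84, 10.68 and 10.62 with PA, 10.91, 10.73, 10.84 and 10.90 with PMA, 10.71, 10.69, 10.50 and 10.58 with SA, and 10.67, 10.68 and 10.72 with OA, against 10.63, 10.68, 10.70 and 10.77 in control cells. PMA was highest but overlapped with control. In a fit on all 35556 probe sets the PMA difference was 0.15 ± 0.06 (adjusted p = 0.303, limma), and the other acids lay between -0.07 and 0.00.

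Mylip, also called IDOL, is an LXR-induced ubiquitin ligase that sends lipoprotein receptors to degradation, and it had the smallest p of the 6 genes against control. It stood at 9.35, 9.35, 9.43 and 9.40 with PA, 9.61, 9.43, 9.44 and 9.55 with PMA, 9.36, 9.49, 9.36 and 9.38 with SA, and 9.53, 9.39 and 9.44 with OA, against 9.37, 9.27, 9.38 and 9.24 in control cells. All PMA and all OA arrays lay above all control arrays, and PA and SA overlapped with control. For comparison, 9.29% of all genes lay above control on every PMA array and 9.72% on every OA array. The log2 difference from control was 0.19 ± 0.05 with PMA (95% interval 0.08 to 0.31, unadjusted p = 0.00209 and adjusted p = 0.119, limma), rank 331 of 18820 genes by p. It was 0.14 ± 0.06 with OA (adjusted p = 0.343), 0.07 ± 0.05 with PA (adjusted p = 0.542) and 0.08 ± 0.05 with SA (adjusted p = 0.771). The mean of the 4 acids was 0.12 ± 0.04 above control (adjusted p = 0.238), and 1 of the 6 genes, Mylip, had an unadjusted p under 0.05 there, as had 12.7% of all genes.

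The median of all genes was itself 0.06 above control with PMA. After cyclic loess between arrays, which brought that median to 0.01, the difference of Mylip with PMA was 0.15 ± 0.05 (adjusted p = 0.198). With PMA replicates 1 and 4 left out, again chosen after seeing the data, it was 0.12 ± 0.06 (adjusted p = 0.896), but these are the highest Mylip arrays of the group, so a smaller difference follows from the choice. Vldlr and Lrp8, receptors that Mylip marks for degradation, showed no difference that passed: Vldlr was 0.01 ± 0.05 with PMA and 0.00 ± 0.05 with OA, and Lrp8 was -0.07 ± 0.06 with PMA and -0.15 ± 0.06 with OA (adjusted p = 0.548 and 0.309, limma).

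Lpcat3, the acyltransferase that puts polyunsaturated chains into membrane phospholipids, stood at 11.44, 11.35, 11.52 and 11.41 with PA, 11.59, 11.52, 11.54 and 11.59 with PMA, 11.59, 11.50, 11.52 and 11.52 with SA, and 11.54, 11.58 and 11.60 with OA, against 11.43, 11.52, 11.52 and 11.41 in control cells. All PMA and OA arrays lay above all control arrays, as for 9.29% of all genes with PMA and 9.72% with OA. For PMA the margin does not show in 2 decimals (lowest PMA array 11.518, highest control array 11.516). PA held the lowest array and overlapped with control, as did SA. The log2 difference from control was -0.03 ± 0.05 with PA (adjusted p = 0.741), 0.09 ± 0.05 with PMA (adjusted p = 0.338), 0.07 ± 0.05 with SA (adjusted p = 0.789) and 0.11 ± 0.05 with OA (adjusted p = 0.445, limma). A second probe set, 10547758, is listed with both Lpcat3 and Emg1. It pointed the other way with OA (-0.17 ± 0.08, adjusted p = 0.405 over all probe sets), with 8.73, 8.49 and 8.55 on the OA arrays against 8.74, 8.81, 8.77 and 8.73 on the control arrays. The 2 probe sets thus disagree in sign with OA, as they do with PMA and SA, while both are at -0.03 with PA, and none of these differences passed.

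**Figure D3:**
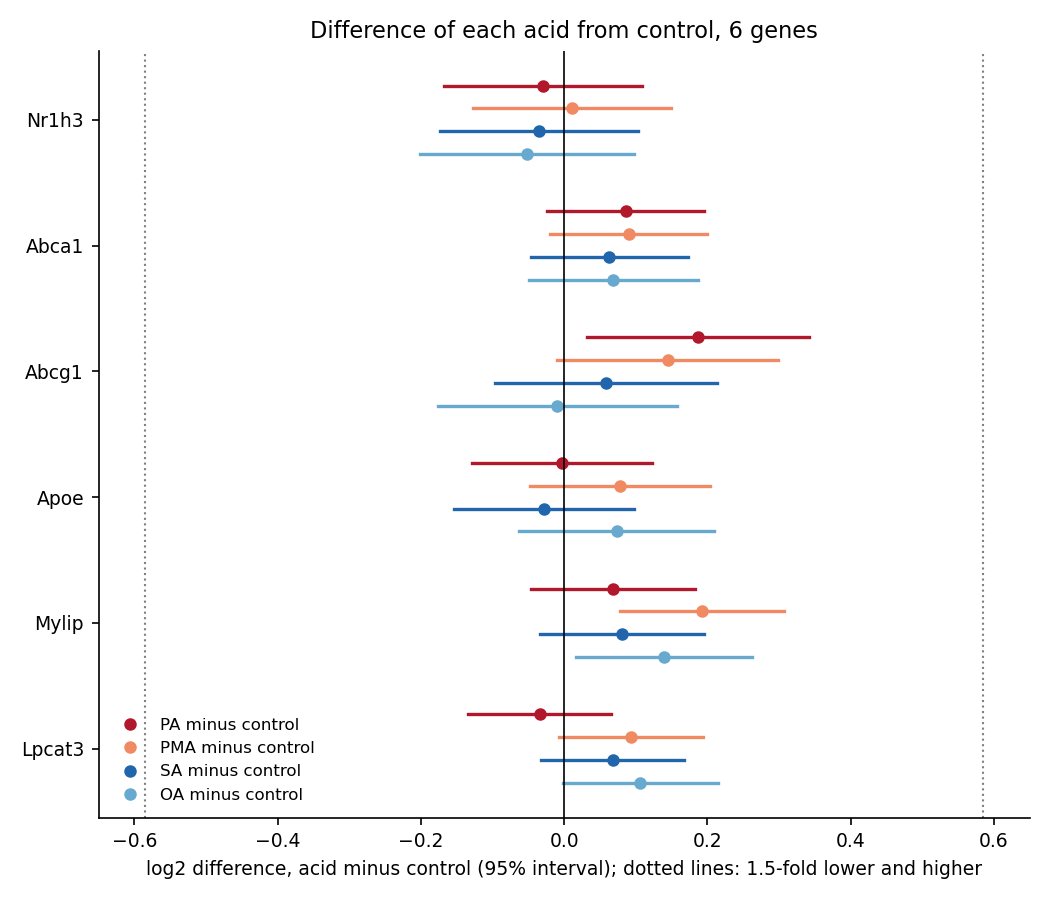
Log2 difference of each acid from control (x axis) for the 6 genes (y axis), with 95% intervals from the fit to all 19 arrays. Every interval lies inside the dotted lines at 1.5-fold lower and 1.5-fold higher, and the largest differences are 0.19, for Mylip with PMA and Abcg1 with PA.

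The 4 acids were set against each other at the same dose and time in 4 pairs, and none of the 6 genes passed in any of them. The share of all genes that passed was 0.962% for PA against PMA, 0.0319% for SA against OA, 0.143% for PA against SA and 0.0531% for PMA against OA. The 24 intervals lay between 0.85-fold and 1.25-fold. PA and PMA have the same chain length and differ by 1 double bond. Lpcat3 averaged 11.43 with PA and 11.56 with PMA, a log2 difference of -0.13 ± 0.05 (95% interval -0.23 to -0.03, adjusted p = 0.173, limma). Mylip averaged 9.38 with PA and 9.51 with PMA, a difference of -0.12 ± 0.05 (95% interval -0.24 to -0.01, adjusted p = 0.241), and no PA array overlapped with a PMA array, as for 7.09% of all genes in that direction. With cyclic loess the Mylip difference was -0.06 ± 0.05 (adjusted p = 0.576). At an unadjusted p under 0.05, 2 of the 6 genes (Mylip and Lpcat3) differed between PA and PMA, 1 (Lpcat3) between PA and SA, 0 between SA and OA and 0 between PMA and OA. Among all genes the shares were 17.7%, 15.8%, 2.4% and 8.61%. Abca1 averaged 9.91 with PA and 9.92 with PMA, a difference of 0.00 ± 0.05 with an interval from -0.11 to 0.10.

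SA and OA differ by the same double bond at 18 carbons. The 6 differences lay between -0.10 for Apoe (95% interval -0.24 to 0.03) and 0.07 for Abcg1 (95% interval -0.10 to 0.23), and that of Abca1 was -0.01 ± 0.06 (95% interval -0.12 to 0.11). PA and SA, both saturated, differed most in Abcg1, which averaged 9.51 with PA and 9.38 with SA (0.13 ± 0.07, adjusted p = 0.393), and in Lpcat3, with 11.43 against 11.54 (-0.10 ± 0.05, adjusted p = 0.312). PMA and OA, both monounsaturated, differed most in Abcg1, with 9.47 against 9.31 (0.15 ± 0.08, 95% interval -0.01 to 0.32, adjusted p = 0.606). These misses do not show that the acids act alike, but the intervals bound how far apart they are.

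Pooled over chain length, the saturated acids were lower than the monounsaturated acids by -0.09 ± 0.04 in Mylip (adjusted p = 0.362), -0.08 ± 0.04 in Lpcat3 (adjusted p = 0.344) and -0.09 ± 0.04 in Apoe (adjusted p = 0.404), and none passed (0.553% of all genes did). Mylip and Lpcat3, 2 of the 6 genes, had an unadjusted p under 0.05, as had 12.6% of all genes. Abca1 differed by 0.00 ± 0.04 and Abcg1 by 0.06 ± 0.05. Whether the double bond had another effect at 16 than at 18 carbons was tested as an interaction, which passed for 0 of the 6 genes (adjusted p from 0.935 to 0.999), as for 0.00531% of all genes. An unadjusted p under 0.05 was found for 0 of the 6 genes and 5.24% of all genes.

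The partners of LXR were measured beside it. Rxra and Rxrb, the broadly expressed RXR genes, did not pass with any acid: Rxra lay 0.05 to 0.08 above control and Rxrb 0.02 to 0.14. Rxrg, the RXR gene of muscle and fat, came closest. It stood at 6.84, 6.95, 7.09 and 6.94 with PA, 7.09, 7.00, 7.18 and 7.00 with PMA, 7.25, 7.11, 7.08 and 7.15 with SA, and 7.17, 7.22 and 7.16 with OA, against 6.94, 6.79, 7.00 and 6.93 in control cells. All SA and OA arrays lay above all control arrays, as for 4.88% of all genes with SA and 9.72% with OA. The log2 difference was 0.27 ± 0.07 with OA (adjusted p = 0.0611), 0.23 ± 0.06 with SA (adjusted p = 0.149), 0.15 ± 0.06 with PMA (adjusted p = 0.232) and 0.04 ± 0.06 with PA (adjusted p = 0.76, limma). Of 12 measured partners and cofactors 0 rose and 0 fell with any acid.

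Of 18 other LXR target genes measured, 0 rose and 0 fell against control with any acid, and their medians were 0.04 with PA, 0.06 with PMA, 0.04 with SA and 0.01 with OA. The medians of all genes were 0.03, 0.06, 0.02 and 0.02. Srebf1, the lipogenic transcription factor that LXR induces, differed by 0.13 ± 0.05 with PA (adjusted p = 0.278), 0.07 ± 0.05 with PMA, 0.06 ± 0.05 with SA and 0.04 ± 0.06 with OA. Scd1, the desaturase that acts on PA and SA and is an LXR target in mouse, lay between -0.01 and 0.05. Mertk, a receptor for the uptake of dying cells, was 0.17 ± 0.06 with PMA (adjusted p = 0.177).

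Apod, a secreted lipocalin that binds small lipids, was the gene of these lists that passed between acids. It stood at 9.74, 9.73, 9.77 and 9.65 with PA, 9.99, 9.96, 9.97 and 9.94 with PMA, 10.03, 9.98, 10.08 and 9.96 with SA, and 9.97, 9.94 and 10.05 with OA, against 10.07, 9.99, 9.99 and 9.92 in control cells. Every PA array lay below every other array of the series. For comparison, 1.65% of all genes lay below control, 2.57% below SA and 7.09% below PMA on every PA array. The share below OA, or below all other groups at once, was not computed, and PA against OA was not among the pairs tested. With PA, Apod fell by 0.29 ± 0.05 on the log2 scale against SA (adjusted p = 0.0119) and fell by 0.24 ± 0.05 against PMA (adjusted p = 0.0185, limma). Against control it was -0.27 ± 0.05 with PA (95% interval -0.37 to -0.17), with an unadjusted p of 1.62e-05 that became 0.152 after adjustment over all genes. With PMA, SA and OA it was -0.03, 0.02 and -0.01 against control. Without PA replicate 4 Apod was -0.27 ± 0.05 against SA (adjusted p = 0.0774) and -0.21 ± 0.05 against PMA (adjusted p = 0.0973). With cyclic loess it was -0.18 ± 0.05 against PMA (adjusted p = 0.0696) and -0.26 ± 0.05 against SA (adjusted p = 0.014).

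**Figure D4:**
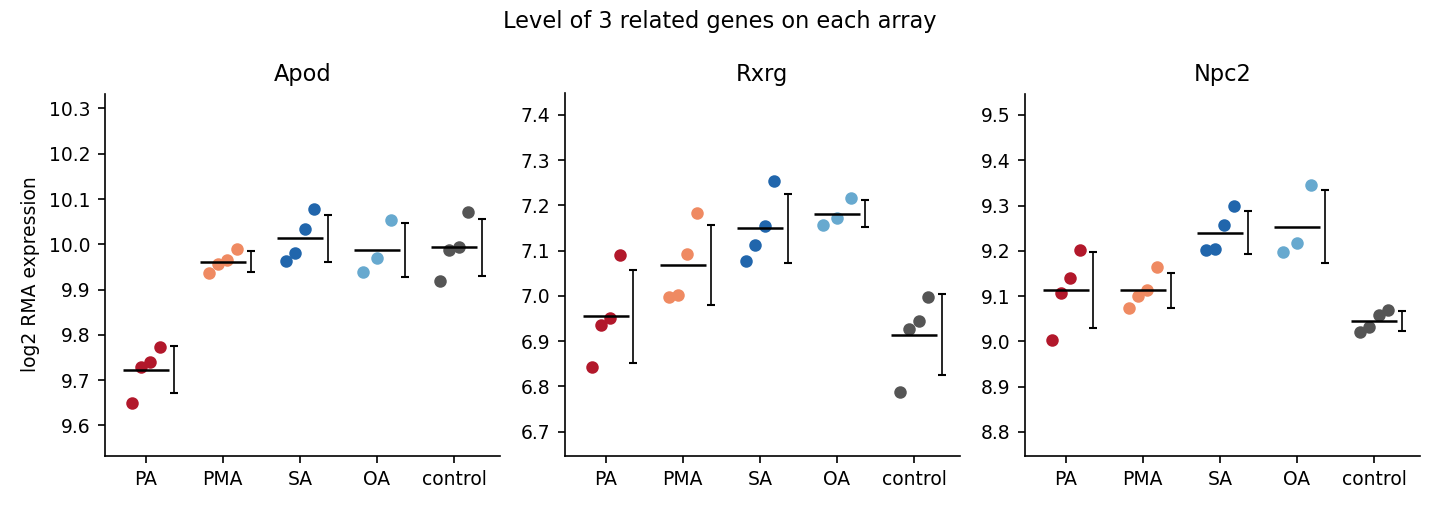
Log2 RMA expression (y axis) of Apod, Rxrg and Npc2 on each array, by group (x axis: PA, PMA, SA, OA, control). Points are arrays, lines group means and bars 1 SD (n = 4, OA n = 3); Apod is lowest on the 4 PA arrays, and Rxrg and Npc2 are above control on all SA and OA arrays.

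Genes of sterol transport, esterification and release did not pass either: of 21 measured, 0 rose and 0 fell against control with any acid. Npc2, which hands cholesterol out of lysosomes, stood at 9.11, 9.00, 9.14 and 9.20 with PA, 9.17, 9.11, 9.10 and 9.07 with PMA, 9.20, 9.30, 9.20 and 9.26 with SA, and 9.35, 9.20 and 9.22 with OA, against 9.02, 9.07, 9.06 and 9.03 in control cells. All arrays of PMA, SA and OA lay above all control arrays, as for 9.29%, 4.88% and 9.72% of all genes. For PMA the margin was thin (lowest PMA array 9.073, highest control array 9.068). The log2 difference was 0.21 ± 0.06 with OA (adjusted p = 0.0802), 0.20 ± 0.05 with SA (adjusted p = 0.144) and 0.07 ± 0.05 with PMA and with PA. Apoa1, the main apolipoprotein of high density lipoprotein, was 0.27 ± 0.08 with PA (adjusted p = 0.204).

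Among 7 genes that make or break down oxysterols and desmosterol, 0 passed against control. Cyp7b1, which hydroxylates oxysterols for their removal, averaged 6.04 with SA and 5.69 with OA, a difference of 0.35 ± 0.08 (unadjusted p = 0.000353, adjusted p = 0.571), and over both chain lengths the saturated acids were 0.24 ± 0.06 higher than the monounsaturated acids (adjusted p = 0.0626, limma). Ch25h, which makes 25-hydroxycholesterol, was 0.28 ± 0.08 with SA (adjusted p = 0.203), but its level lay among the dimmest genes (below 4.95). Of 7 acyltransferases related to Lpcat3, 0 passed. Mboat1 was 0.27 ± 0.07 and Mboat7 0.14 ± 0.05 with PMA (adjusted p = 0.0821 and 0.159). The level of Mboat1 lay close to that of the dimmest genes, with a mean of 4.91 in control cells and 5.18 with PMA. Bpi and Lbp, relatives of Pltp, did not pass with any acid (adjusted p from 0.454 to 0.994).

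**Figure D5:**
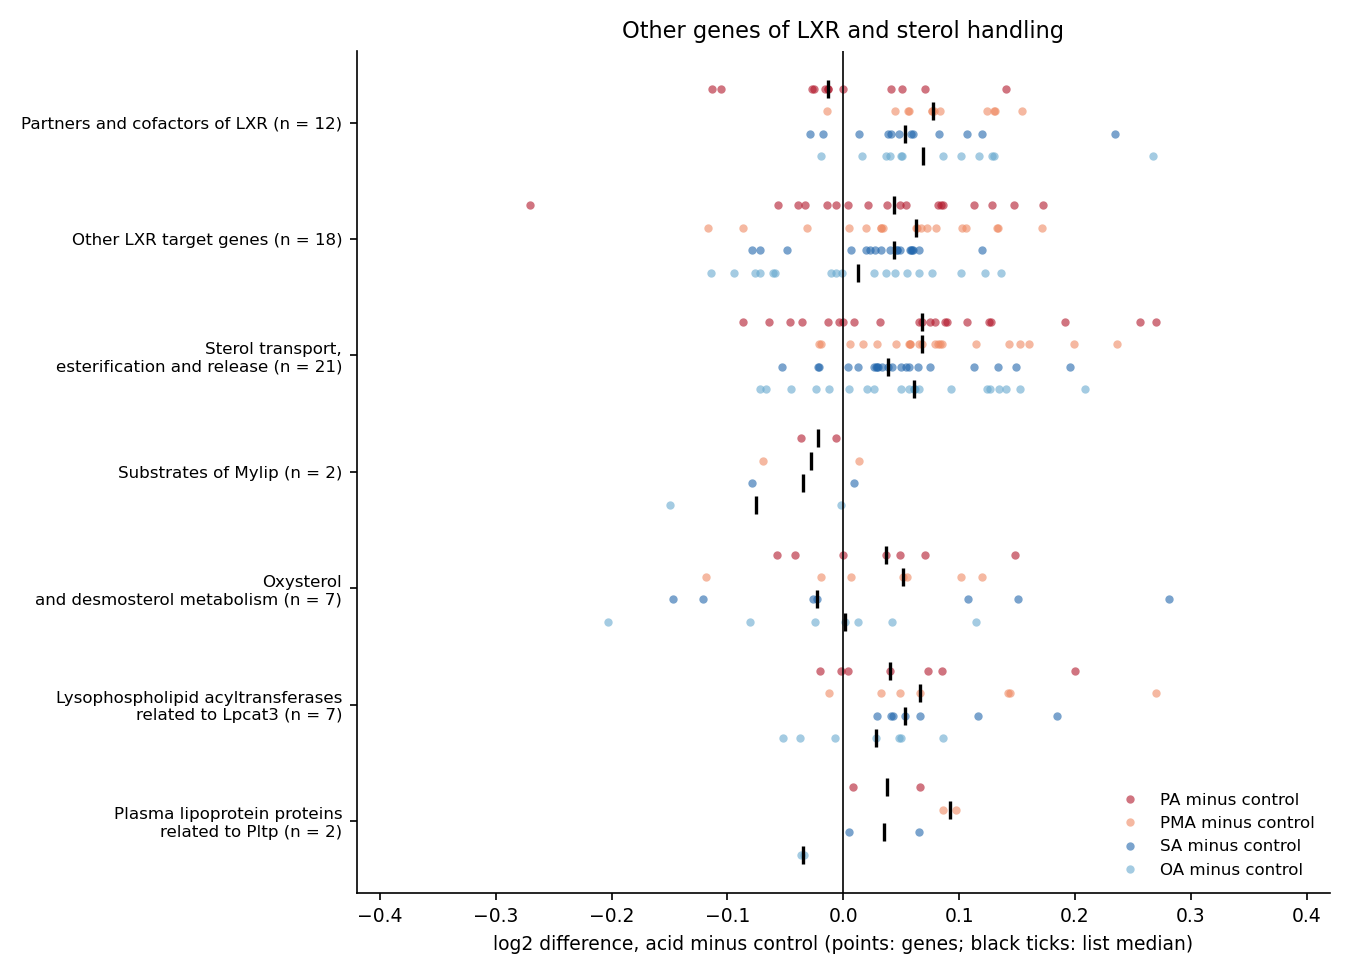
Log2 difference from control (x axis) of each measured gene of 7 lists (y axis), by acid. Points are genes and black ticks list medians; no point passed the threshold, and the points run from -0.27 (Apod with PA) to 0.28 (Ch25h with SA).

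Over the 7 lists, 69 of 77 genes were measured, and 10 (14.5%) had an unadjusted p under 0.05 with PA, 12 (17.4%) with PMA, 7 (10.1%) with SA and 8 (11.6%) with OA. Among all genes these shares were 15.4%, 16%, 8.53% and 11.6%.

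The genes with the most similar pattern over the 19 arrays were found by Pearson correlation, given as a description, since all points share the arrays and their medians. For Abcg1 they were Slc25a28 (0.93), Lhx1 (0.88) and Mrps16 (0.88). For Mylip they were Abl1 (0.90), Slit3 (0.89) and Brd1 (0.89), for Lpcat3 Dock1, Kif3a and Dcn (each 0.93), for Abca1 Kmt2a (0.80), Ntrk3 (0.77) and Sec16a (0.77), for Nr1h3 Etfb (0.84), Vps28 (0.79) and Mrpl4 (0.78), and for Apoe Plcd1 (0.80), Twist2 (0.79) and Pomk (0.78). Among the members the highest correlations were between Mylip and Lpcat3 (0.53), Nr1h3 and Apoe (0.52) and Abca1 and Abcg1 (0.48). As deviations from the group means these were 0.21, 0.59 and 0.35, and the highest was 0.61, between Abcg1 and Apoe.

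The cell type was checked by its markers. All 8 measured adipocyte markers lay above 4.95, the level under which the dimmest genes lie, Adipoq at 12.2 and Fabp4 at 12.4 on average, as did all 6 preadipocyte and fibroblast markers, Dlk1 at 11.5. Against control, 1 of these 6 passed, Col1a1 (a collagen chain) with PMA (0.26 ± 0.05, adjusted p = 0.0463, limma), and none of the other markers did with any acid. The leukocyte gene Ptprc (4.69) and the macrophage gene Adgre1 (3.54) lay under it, with 2 of 7 leukocyte markers above it. The mean level of the preadipocyte and fibroblast markers was 10.34 to 10.51 on PA arrays, 10.51 to 10.61 on PMA arrays, 10.42 to 10.47 on SA arrays and 10.43 to 10.54 on OA arrays, against 10.36 to 10.42 on control arrays. For the adipocyte markers it was 11.15 to 11.23 with PA, 11.16 to 11.21 with PMA, 11.24 to 11.30 with SA and 11.24 to 11.30 with OA, against 11.16 to 11.19 in control cells. Their part in the differences of Mylip, Lpcat3, Rxrg and Npc2 was not tested, and in such bulk RNA fewer cells of a type and less RNA per cell cannot be told apart.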

How the data were processed

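Total RNA (100 ng per array) was hybridised to Affymetrix Mouse Gene 1.1 ST arrays, per the labels. The deposited values are log2 expression per probe set, made by the authors with RMA, affy 1.34.0 and R 2.15.0, per the submitters' processing notes. Background correction and summary were taken as deposited, and arrays carry no read depth: their number limits the precision. The table held 35556 probe sets, 21218 with 1 gene symbol, from which the brightest probe set by mean was taken for each of 18820 genes, with no filter on low values. Array medians lay between 5.23 and 5.43, and array pairs correlated at 0.988 to 0.997. The labels give no batch or date.

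The linear models of limma 3.58.1 (R 4.3.3) took every array, 19 in all, with a mean for each group, and 11 contrasts were tested, two-sided, with Benjamini-Hochberg adjustment over all genes and a threshold of 0.05. Errors are standard errors unless called SD, and intervals are 95% intervals. The fit and the motif search were tested on simulated data. Correlations with the array median used 100000 permutations.

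Members, lists and tests were chosen with earlier results of these data known. Named were all members, genes of the 7 lists past the threshold or with the 2 smallest p of a list, Vldlr, Lrp8, Srebf1, Scd1 and the RXR genes, and the 3 genes most correlated with each member; an item of the rule is not reported here. Most same-numbered arrays did not deviate together (correlations over 0.1 in 6 of 36 pairs, from -0.43 to 0.40), so the numbers were not taken as pairs. No test was made of this. PA and SA correlated at 0.40 and 0.29 for replicates 1 and 4, and PA and control at -0.38 and -0.43 for replicates 1 and 2. Alternatives are given in the closing section. Gene symbols come from the platform annotation, and promoters from RefSeq (GRCm38.p6).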

Additional observations from a re-analysis of the deposited data

Results flagged for a closer look

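Apoe was above the control mean on every PMA array and below it on every SA array: the group means were 0.08 above and 0.03 below, a gap of 0.11 (log2) between PMA and SA, and this difference was not tested. On PMA replicate 4 the margin was thin (9.3804, against a control mean of 9.3797). The pattern was found by looking over 25 genes and shared probe sets. Among all genes, 78.5% had a difference above 0 with PMA and 58.1% with SA. The share of all genes with this pattern on every array was not computed. Single arrays stood apart from the other 3 of their group in 4 of 100 groups looked at, where chance flags about 1 in 20 groups. Mylip on SA replicate 2 was 9.49, against 9.38 on the nearest SA array. Srebf1 on SA replicate 4 was 8.37, against 8.41 on the nearest. Mertk on PA replicate 2 was 6.63, against 6.80 on the nearest, and this array also had the highest array median, 5.43. Bpi, a lipid-binding relative of Pltp with a level among the dimmest genes, was 4.13 on SA replicate 3, against 3.96 on the nearest.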

How the results depend on the processing

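The count of members past the threshold was 0 in all 11 comparisons, and it stayed 0 in each of the 328 counts under the 11 other settings and with each of 19 arrays left out in turn (range 0 to 0, limma). The settings were cyclic loess, the dimmest genes left out, averaged probe sets, every named probe set, a trended robust spread, array weights, only the groups compared and the replicate number as a block. Every probe set of the table, PA replicates 2 and 4 left out, and PMA replicates 1 and 4 left out were added after seeing the data. No paired numbers were taken: with the replicate block Mylip with PMA had adjusted p = 0.157, the count stayed 0, and all genes past the threshold with OA numbered 72, against 162 without it. Of 1968 member differences recomputed, 24 moved by over 1 SE and 98 changed sign, none of them past the threshold on either side.

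The smallest adjusted p of a member was 0.0553, for Mylip with PMA under the trended robust spread (0.119 as reported, 0.0725 to 0.359 over the arrays left out, highest without PMA replicate 1). Abcg1 with PA had 0.0753 without PA replicate 1 and 0.602 without PA replicate 2. Apod with PA against control passed without PA replicate 1 (adjusted p = 0.0255) and under the trended robust spread (0.019). Apod with PA against SA had 0.185 with only the arrays compared, 0.0619 without SA replicate 1 and 0.221 without PA replicates 2 and 4. With PA against PMA the values were 0.196, then 0.0593 and 0.0554 without PMA replicates 1 and 3, and 0.229 without PA replicates 2 and 4 and 0.161 without PMA replicates 1 and 4. Each of these settings used fewer arrays, and the cause of the losses was not tested. All genes past the threshold with PA numbered 0, and 510 without PA replicate 1. With single arrays left out, PMA, SA and OA had as few as 8 and 4 (each without control replicate 4) and 22 (without OA replicate 3). They had as many as 129, 59 and 243, each without PA replicate 2. Between PA and PMA such counts ran from 49 (without PA replicate 4) to 638 (without PA replicate 3), against 181. Between PA and SA they ran from 9 (without SA replicate 2) to 499 (without PA replicate 1), against 27. Other settings went beyond some of these ranges. With cyclic loess the genes past the threshold numbered 86 with SA, 284 with OA and 114 between PA and PMA. With array weights they numbered 315 with PMA, 228 with SA and 1188 with OA. With only the groups compared they numbered 22 between PA and PMA and 2 between PA and SA. Without PMA replicates 1 and 4 they numbered 3 with PMA.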
